A study of Mus musculus with 6 samples.

Results

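The genes described here are the 8 that encode the cell's oxygen sensors and the subunits of the hypoxia-inducible factor (HIF): Egln1, Egln2, Egln3, Hif1an, Hif1a, Epas1, Arnt and Vhl. They were taken by symbol from a table of 24062 gene symbols, and all 8 were among the 13990 genes left after the filter on low counts. The family was chosen by function, prompted by the lower Egln3 CPM of p27OE against EV control in these same libraries, so its differences between the groups are given as a description and support nothing. RNA was sequenced from mouse embryonic fibroblasts (MEFs), which are primary cells of connective tissue, from C57BL/6 embryos. One group of 3 libraries, p27OE, came from cells that received p27 (gene Cdkn1b), an inhibitor of cyclin-dependent kinases, by lentivirus, and the other 3 carry the label EV control, which the labels do not spell out. Both were taken at day 10. The titles of the 3 EV control samples carry a dataset tag that those of p27OE lack. What the tag marks is not given, and a difference it may mark cannot be told apart from the group. The promoter driving p27 and whether libraries of a group came from separate embryos, cultures or transductions are not given in the sources used here, so the spread behind each p-value is that between these libraries, and it may be technical. The series' design text calls the cells non-senescent, while the titles of the p27OE samples call them senescent.

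The prolyl hydroxylases encoded by Egln1, Egln2 and Egln3 (PHD2, PHD1 and PHD3) use oxygen and 2-oxoglutarate to hydroxylate the α subunits of HIF, which marks them for capture by the VHL protein and for destruction. The asparaginyl hydroxylase encoded by Hif1an (FIH) blocks the binding of coactivators to the same subunits. When oxygen is short the α subunits, encoded by Hif1a and Epas1 (HIF-2α), persist, pair with the constant partner ARNT and bind a short core sequence near genes of glycolysis, angiogenesis and mitochondrial turnover. Egln1 and Egln3 are themselves well known HIF target genes, and the α subunits are controlled mainly as proteins, which RNA counts do not measure.

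Library totals lay between 39183624 and 61219345 counts. The introduced gene stood where the labels put it, with Cdkn1b at 31.5 to 43.9 CPM in EV control and 167 to 337 CPM in p27OE. CPM is the count of a gene scaled to a library size corrected by edgeR's TMM factors. Libraries also differed within groups. The summed CPM of 4 Y-linked genes (Ddx3y, Eif2s3y, Kdm5d, Uty) was low in both libraries numbered 1 (0.13 and 1.95). It was 57.2 in p27OE 2 and 124 to 137 in the other 3. Xist, an RNA of the inactive X chromosome, was at 406.8, 5.67 and 0.68 CPM in EV control 1, 2 and 3. In p27OE 1, 2 and 3 it was at 330.5, 163.6 and 0.457 CPM. Libraries of a group thus held different shares of female and male cells. The library EV control 1 also had the most macrophage marker RNA, a summed 102.9 CPM over 14 genes against 19.8 to 39.2 CPM in the other 5 libraries. Of 10 fibroblast markers all were detected in every library, with Col1a1 between 12840 and 20600 CPM, while Dcn (8.28 to 92.7 CPM) and Lum (4.18 to 85.4 CPM) varied widely within both groups and were highest in the libraries numbered 1. In bulk RNA, fewer cells of a type and less RNA per cell cannot be told apart.

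The stretch upstream of Egln3 is shown because that gene prompted the choice, and the short windows of Egln1 because its difference passed the test. RefSeq (GRCm38.p6) gave promoter windows for 7 of the 8 genes, Epas1 being the exception, and the 250 bases before each annotated start were searched on both strands for ACGTG and GCGTG, the core letters that HIF is known to bind. A palindrome such as CACGTG counts on both strands. Starts are those of RefSeq and differ from the GENCODE gene bounds given with the values below, so that the nearer Egln1 window overlaps the GENCODE gene. In capitals are the matches, and sequences run 5′ to 3′ on the strand of the gene. The Egln3 window lies at chr12:54203875-54204124 (minus strand) and the Egln1 windows of 25 bases at chr8:124949366-124949390 and chr8:124949308-124949332 (minus strand).
Egln3, 250 bases before the start: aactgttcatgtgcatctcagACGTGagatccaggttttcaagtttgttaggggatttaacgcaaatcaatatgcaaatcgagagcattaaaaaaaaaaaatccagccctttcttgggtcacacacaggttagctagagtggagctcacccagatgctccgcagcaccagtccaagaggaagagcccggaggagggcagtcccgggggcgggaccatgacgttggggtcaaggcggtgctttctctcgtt
Egln1, match 126 bases before the start: ccggcccgccGCGTGcgcgcggccc
Egln1, match 68 bases before the start: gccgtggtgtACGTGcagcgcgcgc

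Egln3 held 1 match, ACGTG at 229 bases before its start, and Egln1 held 1 of each motif. Of the 7 genes with a window, 5 had at least 1 match (Egln1, Egln2, Egln3, Hif1a and Arnt) and 2 had none (Hif1an and Vhl). Over 32851 windows of all genes of the same length, 16.6% held ACGTG, 28.2% held GCGTG and 38.6% held either. These shares are per window, not per gene, and the 7 genes had 8 windows, with more than 1 for Egln2. The windows of the 2 genes differed in base composition, with 86% G and C in Egln1 and 50.8% in Egln3. A match is a run of letters, not a measured site, and the search did not reach introns or distant elements.

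Among the prolyl hydroxylases, Egln3 transcripts were lower in p27OE cells, Egln1 transcripts fell by a smaller amount, and Egln2 lay at nearly the same level in both groups. Egln3 (chromosome 12, 54178981 to 54203860, GRCm38) stood at 46.2, 50.4 and 35.3 CPM in EV control 1, 2 and 3, against 14.7, 15.3 and 17.3 CPM in p27OE 1, 2 and 3. Every p27OE library was thus below every EV control library, with a gap wider than the spread of either group. The means were 43.95 ± 7.75 and 15.8 ± 1.33 CPM (SD, n = 3 each), a log2 fold change of −1.48 ± 0.15 (SE), or 2.79-fold lower. This is the value that prompted the choice of the genes, and no test is given for it. Among 13990 genes it ranked 52 in order of the size of the fall.

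Egln1, which encodes the main oxygen sensor of most cells (chromosome 8, 124908587 to 124949324), was at 127, 132 and 117 CPM in EV control 1, 2 and 3. In p27OE 1, 2 and 3 it was at 83.9, 86.1 and 87.2 CPM. The groups did not overlap, and the p27OE libraries differed from each other by no more than 1.04-fold. Egln1 fell by 0.55 ± 0.07 on the log2 scale (SE; edgeR adjusted p = 0.0303), or 1.46-fold. Egln2 (chromosome 7, 27158658 to 27166802) was at 60.3, 60 and 58 CPM in EV control, against 63.8, 62.3 and 56.9 CPM in p27OE. Its groups overlapped, and a log2 fold change of 0.04 ± 0.07 (SE) did not pass (edgeR adjusted p = 0.769).

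**Figure D1:**
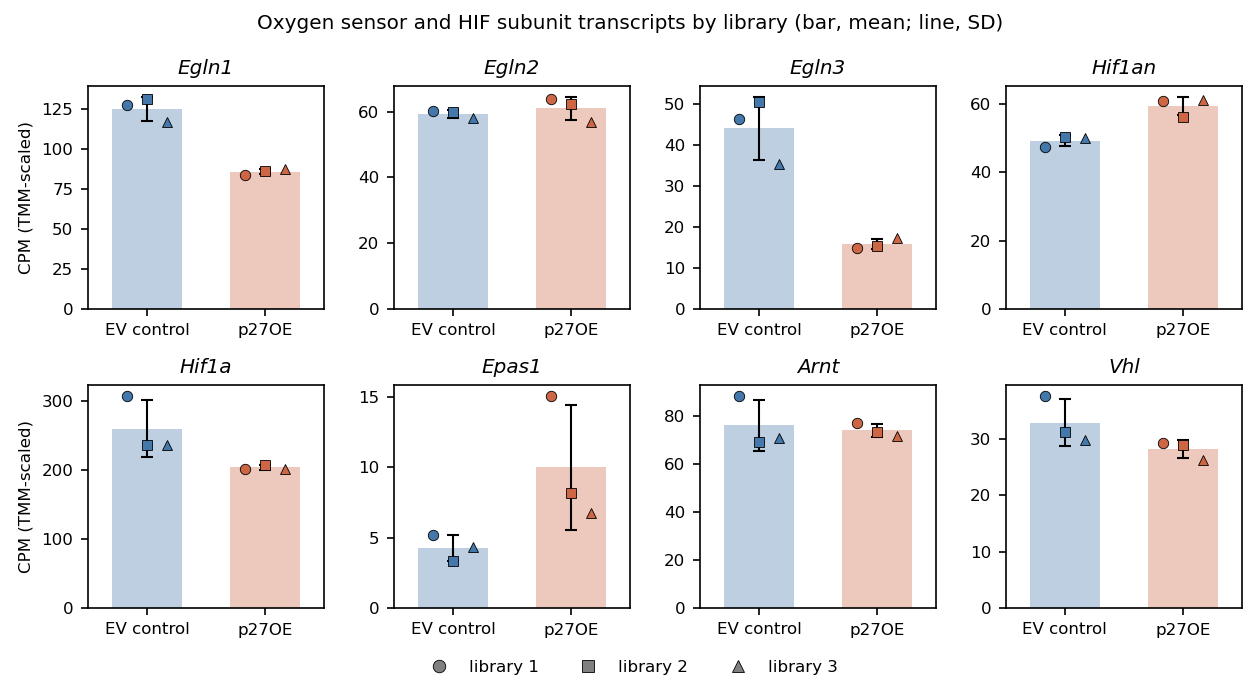
Transcript level of each of the 8 genes in CPM (vertical axes, from 0, scaled separately) in the 3 EV control and 3 p27OE libraries. Bars are group means, lines are the SD (n = 3), and the marker shape gives the library number; Egln3 and Egln1 lie lower in all 3 p27OE libraries, while Epas1 and Hif1an lie higher.

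The asparaginyl hydroxylase gene Hif1an (chromosome 19, 44562850 to 44576274) went the other way. It was at 47.5, 50.3 and 50.1 CPM in EV control 1, 2 and 3, against 61.1, 56.4 and 61.2 CPM in p27OE 1, 2 and 3. The groups did not overlap, but the step was small, with a log2 fold change of 0.27 ± 0.07 (SE) that did not pass over all genes (edgeR adjusted p = 0.0713). Its libraries varied little within groups, by at most 1.08-fold.

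The HIF α subunit genes also had opposite directions. Hif1a (chromosome 12, 73901375 to 73947530) was at 307, 236 and 236 CPM in EV control 1, 2 and 3, against 202, 207 and 202 CPM in p27OE 1, 2 and 3. All p27OE values were below all EV control values, and EV control 1 stood above the other controls. Hif1a had a log2 fold change of −0.35 ± 0.12 (SE), which did not pass (edgeR adjusted p = 0.13), and of −0.23 without EV control 1. That library is also the one with the most macrophage marker RNA, and the part of this in the Hif1a level was not tested. Gm15283, on the opposite strand, and Gm49321 share 8.11% of the Hif1a exon length, and without a stated strand setting their reads cannot be told apart there.

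Epas1 (chromosome 17, 86753700 to 86833410), known for its role in endothelial and perivascular cells, was the least abundant of the 8 genes, with 196 to 208 counts in the EV control libraries and 280 to 696 in p27OE. Its level was 5.20, 3.36 and 4.30 CPM in EV control 1, 2 and 3, against 15.1, 8.14 and 6.73 CPM in p27OE 1, 2 and 3. The p27OE libraries all lay above the controls, but they differed among themselves by 2.24-fold, with p27OE 1 well above the rest. The log2 fold change was 1.22 ± 0.34 (SE) and did not pass (edgeR adjusted p = 0.0889). Without p27OE 1 it was 0.78 (edgeR adjusted p = 0.13).

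Endothelial marker RNA was scarce. The summed level of 10 endothelial genes was 10.8 to 13.6 CPM in EV control and 11.5 to 12.96 CPM in p27OE, and Cldn5 had no count in any library. Pecam1 and Cdh5 reached at most 0.175 and 0.132 CPM. The angiopoietin receptor gene Tek was at 2.38, 0.992 and 1.03 CPM in EV control 1, 2 and 3, against 6.49, 3.36 and 1.51 CPM in p27OE 1, 2 and 3, with overlapping groups and a difference of 1.38 ± 0.60 log2 units (SE; edgeR adjusted p = 0.21). Of the 5 endothelial genes tested, Tek was named because it lay higher in p27OE. The others had log2 fold changes of −0.48 (Egfl7, with every p27OE library below every control), −0.19 (Esam), −0.13 (Emcn) and 0.01 (Kdr). By edgeR 0 of the 5 passed, where 2.61% of all genes tested did. With an unadjusted edgeR p under 0.05, 1 was lower and 0 higher, where 12.9% and 13.1% of all genes were.

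Arnt, the shared partner subunit (chromosome 3, 95434388 to 95497240), was at 88.4, 69 and 70.8 CPM in EV control, against 77.1, 73.3 and 71.8 CPM in p27OE. The groups overlapped, with a difference of −0.04 ± 0.11 log2 units (SE; edgeR adjusted p = 0.857). Vhl, whose protein recognises hydroxylated HIF α (chromosome 6, 113623959 to 113631633), was at 37.7, 31.2 and 29.9 CPM in EV control, against 29.3, 29 and 26.4 CPM in p27OE. Its p27OE values lay just under the control values, and the log2 fold change of −0.22 ± 0.11 (SE) did not pass (edgeR adjusted p = 0.259). For Hif1a, Arnt and Vhl alike, EV control 1 was the highest of all 6 libraries.

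Egln3 is left out of the counts of calls that follow. Of the other 7 genes, 1 passed by edgeR (Egln1, lower), where 2.61% of all genes tested passed, 0.843% lower and 1.77% higher. At an unadjusted p under 0.05, 2 were lower (Egln1 and Hif1a) and 2 higher (Hif1an and Epas1), where 12.9% of all genes were lower and 13.1% higher. DESeq2 called the same 4 genes, where it called 8.41% of all genes lower and 8.18% higher. With Egln3 included, groups did not overlap for 6 of the 8, with 4 lower and 2 higher in p27OE, where 33.3% of all genes had groups that did not overlap. The choice of the genes used this same contrast, so nothing is read from these counts. In a model that includes the Y-linked level, 5 of the 7 passed, 3 lower and 2 higher, where 34.0% of all genes passed. The 4 that joined were Epas1, Hif1an, Hif1a and Vhl, with edgeR adjusted p of 0.00709, 0.0104, 0.0106 and 0.0232. Leaving out EV control 2 or 3, or any single p27OE library, left 0 of the 7 and 1 to 2 genes of the whole table past the threshold (edgeR; Egln1 adjusted p = 0.0707 to 0.189). Without EV control 1, only Egln1 of the 7 passed, where 12.9% of all genes did.

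Differences were also taken between libraries of like Y-linked level. Between p27OE 1 and EV control 1, both of low level, Egln3 differed by −1.65 on the log2 scale and Egln1 by −0.60. Between p27OE 3 and the mean of EV control 2 and 3, all of high level, the differences were −1.29 for Egln3 and −0.51 for Egln1. Hif1an differed by 0.36 and 0.28 in these 2 comparisons, and Epas1 by 1.53 and 0.82. Hif1a differed by −0.61 and −0.23. The direction was the same at both levels for these 5 genes and for Vhl, at −0.36 and −0.21. For all of them the groups did not overlap, so the direction could not differ and its agreement adds nothing. Egln2, at 0.08 and −0.05, and Arnt, at −0.20 and 0.04, changed sign.

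**Figure D2:**
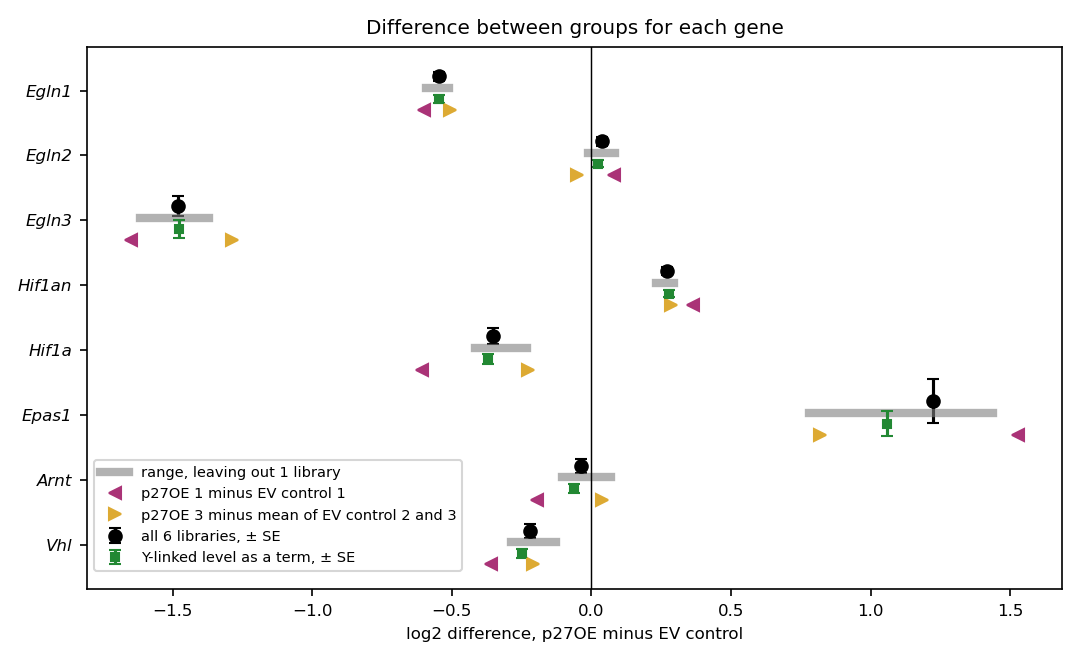
Log2 difference between p27OE and EV control for each gene (horizontal axis) by all 6 libraries with its SE, by the range over fits that leave out 1 library, after including the Y-linked level, and within libraries of like Y-linked level. Egln3 stays between −1.62 and −1.37 and Egln1 between −0.59 and −0.51 when 1 library is left out, while Epas1 ranges from 0.78 to 1.44.

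Levels of different genes can be compared only per length, and the exon length of the GENCODE M21 annotation was used for this. In EV control the order was Hif1a at 44.1 ± 6.97 CPM per kb, Egln1 at 34.8 ± 2.09, Egln2 at 21.2 ± 0.447 and Egln3 at 16.5 ± 2.91 (SD, n = 3). Below them came Vhl at 10.99, Arnt at 9.50, Hif1an at 7.46 and Epas1 at 0.767 CPM per kb. Only Vhl and Arnt overlapped among neighbours in this order. In p27OE the order was Hif1a at 34.5, Egln1 at 23.9 and Egln2 at 21.8 CPM per kb, then Vhl at 9.43, Arnt at 9.25 and Hif1an at 9.01, whose libraries overlapped. Egln3, at 5.92 ± 0.50 CPM per kb, came after them, and Epas1 at 1.79 ± 0.80 was last. By coding length alone the order differed, with Egln3 (61.3 CPM per kb) above Egln2 (47.3 CPM per kb) in EV control.

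Egln2 held a larger share of the prolyl hydroxylase transcripts in p27OE, and Egln3 a smaller one. Per exon length, Egln3 made up 23.4%, 24.6% and 19.96% of the 3 genes' summed level in EV control 1, 2 and 3, against 10.7%, 11.1% and 12.7% in p27OE 1, 2 and 3. The Egln2 share was 29.3% ± 1.67 in EV control and 42.2% ± 2.21 in p27OE (SD, n = 3), while that of Egln1 was 48.05% ± 0.75 and 46.3% ± 1.16. The summed level of the 3 genes was 74.3, 76.9 and 66.5 CPM per kb in EV control and 51.6, 52 and 51.1 CPM per kb in p27OE. The groups did not overlap in this sum, and the p27OE libraries were nearly alike. The sum holds Egln3, the gene that prompted the choice, so its lower level in p27OE is a description only. Egln2 itself had means of 21.2 and 21.8 CPM per kb in EV control and p27OE, so its larger share goes with the lower sum.

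Epas1 was a small part of the HIF α transcripts throughout. Its share of the level of Hif1a and Epas1 together was 1.75%, 1.48% and 1.89% in EV control 1, 2 and 3, against 7.29%, 3.98% and 3.40% in p27OE 1, 2 and 3. The groups did not overlap, and p27OE 1 was the highest. The ratio of summed α subunit to summed prolyl hydroxylase transcripts was chosen after the values were seen, and it also holds Egln3. It was 0.715, 0.529 and 0.614 in EV control and 0.716, 0.704 and 0.694 in p27OE. By exon length EV control 1, with its high Hif1a, lay among the p27OE libraries. By coding length the groups did not overlap, at 0.571, 0.420 and 0.497 for the control libraries and 0.611, 0.600 and 0.585 for p27OE, so the overlap depends on the length used.

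**Figure D3:**
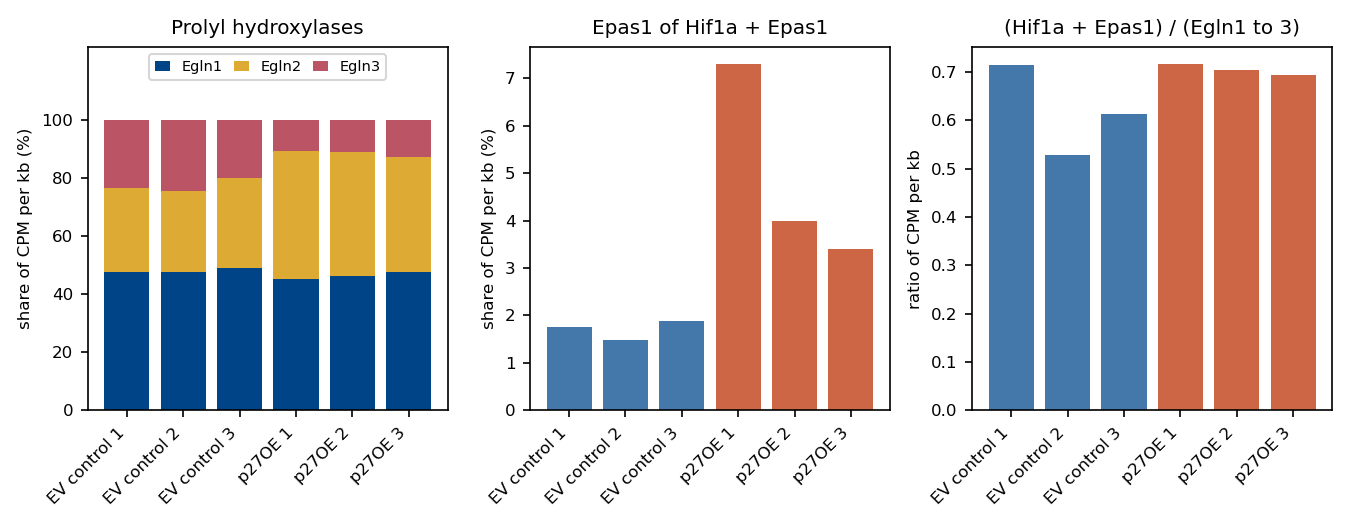
Per library, the share of Egln1, Egln2 and Egln3 in their summed CPM per kb of exon (left, percent), the share of Epas1 in Hif1a and Epas1 together (middle, percent) and the ratio of α subunit to prolyl hydroxylase transcripts (right). Egln3 drops from 19.96% or more in EV control to 12.7% or less in p27OE, and the ratio of EV control 1, 0.715, lies within the range of p27OE, 0.694 to 0.716, per exon length but not per coding length.

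Genes with the pattern most like that of Egln3 were found by the root mean square difference of log2 CPM, centred on each gene's mean over the 6 libraries, among 10373 genes. The closest was Kif21b, a kinesin gene, at 0.23 log2 units, followed by Stc2, a secreted glycoprotein gene, at 0.26, the transcription factor gene Ets2 at 0.27, the matrix protein gene Tgfbi at 0.28 and Mgarp, which encodes a mitochondrial protein, at 0.29. Stc2 was at 35.95, 34.9 and 31.2 CPM in EV control, against 14.7, 18.5 and 17.5 CPM in p27OE. For Hif1a the closest were Ralgds at 0.02, Tmem164 at 0.02 and the collagen gene Col16a1 at 0.05. For Epas1 they were Smad6, an inhibitor of BMP signalling, at 0.12, the lipid phosphatase gene Ppap2b at 0.17 and the thrombomodulin gene Thbd at 0.18. Smad6 was at 32.8, 22.5 and 23.95 CPM in EV control 1, 2 and 3, against 78, 49.9 and 41.5 CPM in p27OE 1, 2 and 3, with p27OE 1 highest. These genes were picked for likeness over the same libraries, so a shared pattern is no separate result. Among the 8 genes themselves, Hif1a and Vhl were the closest pair, at 0.08, and Egln3 and Epas1 the farthest apart, at 1.39.

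Most genes of a list of known HIF targets had log2 fold changes below 0 in p27OE cells, and a few fell. Of 28 such genes outside glycolysis, 25 were tested: 4 fell and 0 rose (edgeR adjusted p under 0.05; limma-voom gave the same counts), where 0.843% of all genes tested fell by edgeR and 0.958% by limma-voom. Of the 25, 23 lay below 0, where 6746 of 13990 genes did, and the median log2 fold change was −0.56, against 0.01 over all genes. At an unadjusted p under 0.05, 17 were lower and 0 higher, where 12.9% of all genes were lower. By DESeq2 14 fell and 0 rose, where 8.41% of all genes fell. For 17 of the 25 every p27OE library was below every EV control library, where 16.5% of all genes had that pattern. Epo had no count in any library, and Nos2 and Cxcr4 were too low to test.

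The 4 that fell were Bnip3, Pdk1, Stc2 and Fam162a. Bnip3, a mitophagy receptor gene, was at 200.4, 192 and 149.9 CPM in EV control, against 87.2, 103 and 99.6 CPM in p27OE, and fell by 0.91 ± 0.13 on the log2 scale (SE; edgeR adjusted p = 0.0348). Pdk1, whose kinase inhibits pyruvate dehydrogenase, fell by 1.07 ± 0.19 (SE, edgeR adjusted p = 0.0471). Stc2 fell by 1.01 ± 0.11 (SE; edgeR adjusted p = 0.0289) and Fam162a, a gene of mitochondrial cell death, by 0.56 ± 0.10 (SE; edgeR adjusted p = 0.0462). All 4 lay lower in each p27OE library than in each control. Each kept its call without EV control 1 and lost it on omission of each of the other 5 libraries in turn (edgeR adjusted p = 0.0707 to 0.221 over these fits), and Pdk1 also lost it with upper-quartile and total-count scaling (edgeR adjusted p = 0.0508 and 0.0555).

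**Figure D4:**
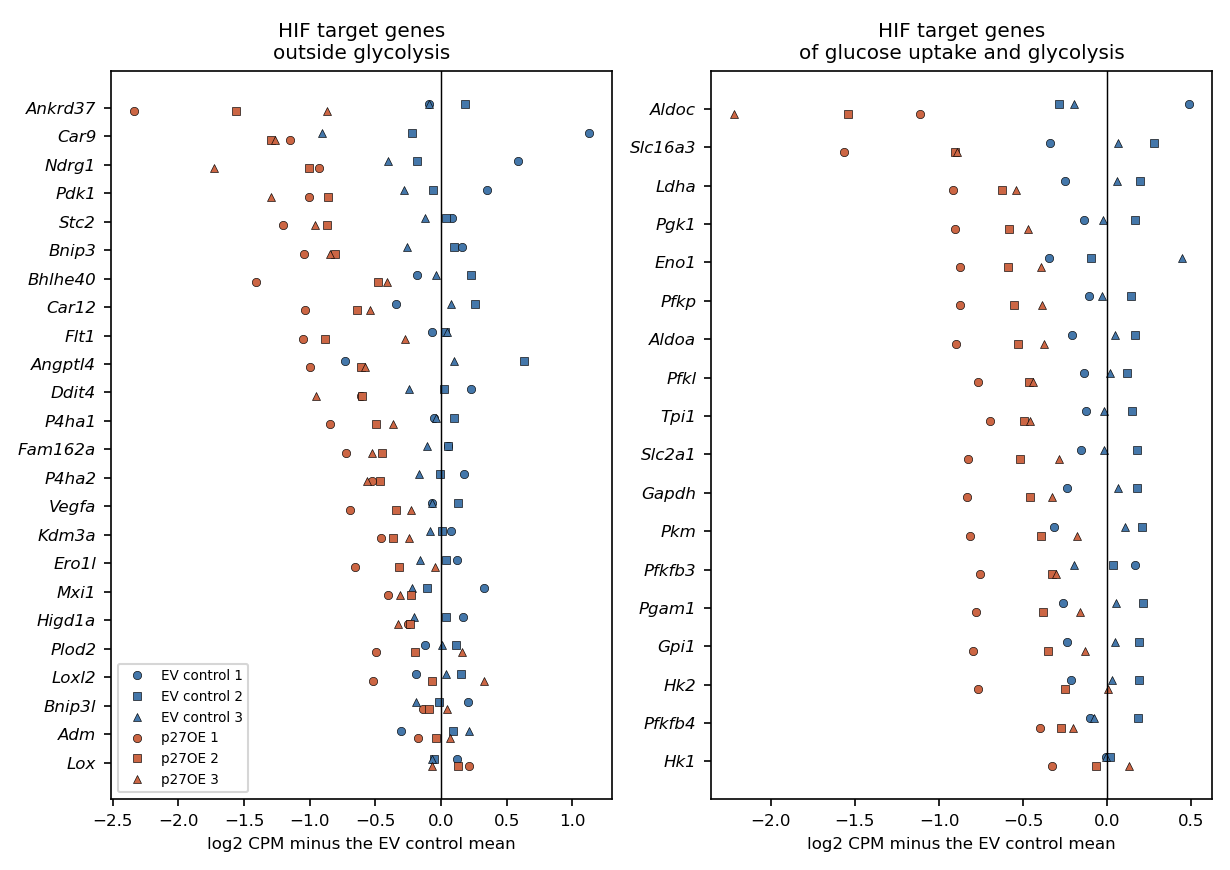
Log2 CPM of tested HIF target genes, each minus its EV control mean (horizontal axes), in EV control (blue) and p27OE (orange) libraries, for genes outside glycolysis (left) and of glucose uptake and glycolysis (right). Most p27OE points lie left of 0, with p27OE 1 farthest for most glycolysis genes.

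Other targets had the same direction without passing. The carbonic anhydrase gene Car9 was at 23.4, 9.16 and 5.66 CPM in EV control, against 4.78, 4.33 and 4.42 CPM in p27OE, a difference of −1.49 ± 0.50 log2 units (SE; edgeR adjusted p = 0.127), with EV control 1 far above its group. Vegfa, the angiogenic growth factor gene, was at 165, 189 and 165 CPM in EV control, against 107, 136 and 147 CPM in p27OE, a difference of −0.41 ± 0.13 log2 units (SE; edgeR adjusted p = 0.118). Lox, Adm and Loxl2 lay close to 0 as group differences, at 0.09, −0.06 and −0.05.

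Of 18 genes of glucose uptake and glycolysis, all 18 were tested and lay below 0, where 6746 of 13990 genes did. The median log2 fold change was −0.54, and 0 passed by edgeR over all genes. At an unadjusted p under 0.05, 11 were lower, where 12.9% of all genes were. DESeq2 called 11 lower, where it called 8.41% of all genes lower. By limma-voom, which called 0.958% of all genes lower, 0 passed. Every p27OE library was below every control for 13 of them, where 16.5% of all genes had that pattern. The smallest p-values were those of Tpi1 (−0.55 ± 0.11, SE; edgeR adjusted p = 0.0546, and 0.0471, 0.0477 and 0.0488 with upper-quartile scaling, total-count scaling and the stricter filter), the lactate exporter gene Slc16a3 (−1.11 ± 0.23; 0.0586) and Pfkl (−0.56 ± 0.12; 0.0622). Across libraries the median deviation from the control mean was −0.82, −0.48 and −0.35 in p27OE 1, 2 and 3, and lay between −0.18 and 0.17 in the controls. Once the Y-linked level was included, 14 of these 18 fell and 0 rose. Of the 25 targets outside glycolysis, 17 fell and 1 rose. Over all genes, 16.0% fell in that model and 18.0% rose. Eno1 was at 0.195 to 0.549 CPM only, with the near-identical copy Eno1b at 11.7 to 27.6 CPM. Both lay far under Pgk1, at 839.2 to 1763 CPM. Whether reads of the enolase were split between the copies or lost was not tested, so its level is uncertain. Eno1, with at most 25 counts, is still among the 18 genes below 0 and the 13 without overlap.

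The partners of VHL and other HIF regulators showed no common direction. Of 19 tested genes, 0 passed by edgeR with group as the only term, 9 lay above 0 and 10 below, and the median was −0.09. At an unadjusted p under 0.05, 5 were lower and 3 higher, where 12.9% and 13.1% of all genes were. DESeq2 called 5 lower and 2 higher, where it called 8.41% and 8.18% of all genes. By limma-voom, which called 2.99% of all genes, 0 passed. With the Y-linked level in the model, 6 fell and 4 rose, where 16.0% and 18.0% of all genes did. Elongins B and C, which hold VHL in its ubiquitin ligase and are listed as Tceb2 and Tceb1, had log2 fold changes of 0.19 ± 0.08 and −0.12 ± 0.18 (SE). The smallest p-values belonged to Siah2, a ligase gene that acts on prolyl hydroxylases (−0.37 ± 0.08, SE; edgeR adjusted p = 0.0664), the SUMO protease gene Senp1 (−0.34 ± 0.08; 0.0692) and the chaperone gene Ptges3 (−0.42 ± 0.11; 0.0757). Cited2, a HIF target that competes with HIF for coactivators, was at 55.9, 70.6 and 80.9 CPM in EV control, against 92.2, 93.1 and 115.9 CPM in p27OE, without overlap (0.54 ± 0.16, SE; edgeR adjusted p = 0.0989).

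With group as the only term and all 6 libraries, no gene of the other related lists passed by edgeR. Of 16 further genes of the bHLH-PAS family, to which Hif1a, Epas1 and Arnt belong, 15 were tested. Of these, 0 passed by edgeR, DESeq2 or limma-voom, and the median was −0.08. At an unadjusted p under 0.05, 1 was lower and 1 higher, where 12.9% and 13.1% of all genes were. With the Y-linked level in the model, 1 fell and 1 rose, where 16.0% and 18.0% of all genes did. Hif3a, the third α subunit gene, reached at most 0.25 CPM and was not tested, and Arnt2, a relative of Arnt, was at 18.2 ± 3.18 and 24.2 ± 1.07 CPM (SD, n = 3; edgeR adjusted p = 0.118). Npas2 and Per1 had values of −0.77 ± 0.30 and 0.21 ± 0.09 (SE). Of 28 other dioxygenases that use 2-oxoglutarate, among them collagen hydroxylases and histone and DNA demethylases, 0 passed by edgeR or limma-voom. At an unadjusted p under 0.05, 4 were lower and 2 higher. DESeq2 called 2 lower and 2 higher, where it called 8.41% and 8.18% of all genes. With the Y-linked level in the model, 6 fell and 3 rose. Of the 28, 12 lay above 0 and 16 below, and the median was −0.01. Plod1, a lysyl hydroxylase gene, had the smallest p (−0.51 ± 0.11, SE; edgeR adjusted p = 0.0641), followed by Alkbh5 (−0.29 ± 0.08; 0.0846) and Kdm4c (0.27 ± 0.07; 0.0858).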

How the data were processed

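The values of the deposited table are raw counts (whole numbers that sum to a different total in each library) for each gene symbol. The submitters' processing notes name the mm10 genome, featureCounts 1.4.6 of Subread, Bowtie2 2.2.6 and TopHat2 2.0.14; annotation, strand setting and filters are not given in the sources used here. Each column matched 1 sample title. Libraries of a group differed beyond sampling noise (chi-square per gene 6.49 to 188).

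Genes were filtered with filterByExpr, scaled by TMM and tested with edgeR 4.0.16 in R 4.3.3 (glmQLFit, robust; glmQLFTest, two-sided, group as the only term), with Benjamini-Hochberg adjustment over the 13990 genes and calls under 0.05. The SE is the log2 fold change divided by the root of its F statistic. Log2 CPM used a prior count of 2. The code was tested on simulated counts. Coordinates and exon lengths are from GENCODE M21 (GRCm38, the assembly of mm10).

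Members and gene lists were chosen with earlier results of these data known. Named were all members, from each of the 5 pathway lists every called gene and the 3 smallest p-values, and the genes most like Egln3 (5), Hif1a (3) and Epas1 (3) (mean log2 CPM 2 or more, no predicted symbol). Other list genes and markers were named after their values were seen; 1 gene of the HIF target list is in the counts but is not reported here by name or plotted. Alternatives were other scalings, filters, DESeq2 1.42.0, limma-voom (limma 3.58.1), a replicate block, the Y-linked level in the model and omitted libraries.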

Additional observations from a re-analysis of the deposited data

How the results depend on the processing

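Egln3 is left out of the member counts here, as above, and counts that include it are in brackets and are a description only. RLE, upper-quartile and total-count scaling, both other filters and limma-voom gave 1 called member of the other 7 throughout (Egln1). They gave 4 called pathway genes, or 5 with the filter of 1 CPM in 3 libraries, and 313 to 497 genes passed in place of 365. With upper-quartile and total-count scaling Pdk1 was lost and Tpi1 gained (edgeR adjusted p = 0.0471 and 0.0477). Other settings moved the counts. DESeq2 called 2321 genes, 4 members (5 with Egln3) and 36 pathway genes. The Y-linked term gave 4761 genes, 5 members (6 with Egln3) and 53 pathway genes. Omission of both libraries numbered 1 gave 2334 genes, 2 members (3 with Egln3) and 32 pathway genes. With the replicate number as a block, 2410 genes, 2 members (3 with Egln3) and 37 pathway genes passed. The block is not used as a pairing, because the labels do not say what the replicate number marks. Deviations of the same-numbered libraries had correlations across genes of 0.67, 0.04 and 0.50. Those of EV control 2 were closer to p27OE 3 (0.56). Leaving out 1 library gave 1 to 1827 genes, 0 to 1 members (0 to 2 with Egln3) and 0 to 22 pathway genes. The cause was not tested. Egln3 stayed between −1.62 and −1.37 over those fits and its value did not reverse under any of the 16 alternatives. Its groups did not overlap, so leaving out a library could not reverse it, and its value remains a description. By coding length the Egln3 share was 28.6% in EV control and 15.5% in p27OE, an alternative chosen after the data were seen in place of protein lengths, which were not used here. Leaving out 1 library moved the Egln3 share to 21.7 to 23.97% and 10.9 to 11.9%, and the Epas1 share to 1.61 to 1.82% and 3.69 to 5.64%. No called gene value reversed. Epas1, with 196 to 696 counts, is the member with the least depth.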
